A study of Petromyzon marinus with 12 samples.

Results

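Immediate-early and stress-responsive transcription factors were followed in sea lamprey (Petromyzon marinus) embryos. They were picked by symbol: a gene model belonged if its symbol in the count table began with the name of a FOS, JUN, EGR, IER, ATF, CREB, CREM, KLF, MAF, NF-kB, REL, NR4A, C/EBP, NFIL3, STAT, IRF, HIF1A, NFE2L, XBP1 or DDIT gene. This gave 93 gene models with 56 different symbols, of 22407 gene models in the table. Of the 93, 79 were counted as transcription factors by symbol, among them IER5L, which is annotated only as an immediate early response protein. The symbol of an NF-kB inhibitor was carried by 4. Another 2 were DDIT4L, and 8 were caught by name alone (ATF7IP, CEBPZ, CEBPZOS, HIF1AN, IER3IP1, IRF2BP2 and NFKBIL1), and these are kept apart. The symbols come from protein matches in the deposited annotation, with a median identity of 50.7% over the 93 models (22.7% to 83.7%). A symbol shared by several models, as was the case for 26 symbols and 63 models, therefore names a relative and not a specific orthologue.

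The embryos were whole KMT1 knockouts, KMT5A knockouts and wildtypes at day 2 and day 3 of development at 18 °C, with 2 pools of about 100 embryos for each genotype and day. KMT1 enzymes methylate histone H3 at lysine 9 and KMT5A adds a single methyl group to lysine 20 of histone H4. Knockouts came from fertilised eggs injected with Cas9 protein, guide RNAs and fluorescein dextran and checked for the dye at 24 hours, so each pool mixes embryos in which the share of edited cells is not given. The labels do not say whether wildtype embryos were injected, so injection and loss of the enzyme cannot be told apart, nor whether the 2 pools of a group came from separate spawnings, so p-values measure the spread between pools.

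Immediate-early genes are switched on within minutes of a stimulus without new protein synthesis. FOS and JUN proteins pair into the AP-1 factor, EGR proteins are zinc-finger factors downstream of the same MAP kinase signals, and ATF3 and ATF4 act in stress responses. NF-kB dimers of REL-family proteins are held back by IkB proteins, which NF-kB itself induces. In embryos many of these factors also take part in normal patterning and differentiation, so their levels change with age without any stress.

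Libraries held 61886305 to 89061394 counts. At day 3 the KMT5A gene averaged 79.6 ± 7.1 CPM (counts scaled to a common library total, with TMM normalization) in KMT5A-knockout pools, 201 ± 4.0 CPM in KMT1-knockout pools and 203 ± 7.5 CPM in wildtype pools (SD, n = 2). The labels do not say which KMT1-family gene the guides hit. SUV39H2, a gene of that family that may not be the one targeted, averaged 34.7 ± 2.9 CPM in KMT1-knockout pools at day 3. Wildtype pools averaged 53.8 ± 3.2 CPM (SD, n = 2 each). At day 2 KMT5A differed from wildtype by less than the spread between pools in its knockout, and SUV39H2 was not lower in value (KMT5A 375 ± 11.0 against 381 ± 11.0 CPM, SUV39H2 148 ± 4.2 against 119 ± 0.35 CPM, SD, n = 2 each). In 2 day 3 libraries, KMT1 knockout replicate 2 and KMT5A knockout replicate 1, a single ribosomal RNA gene took 3.725% and 7.819% of counts, against at most 0.305% elsewhere. The blood cell markers CSF1R and PTPRC were at or near 0 in all 12 libraries, and SPI1 stayed at 1.29 CPM or less. A library listed 7129 to 10076 genes at 0 but only 8 to 29 genes with 1 to 3 counts, so a 0 can be a failed estimate. No fold change is given for a gene that is listed at 0 throughout a group.

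Of the 93 models, 62 were above 0 in all 12 libraries and 87 passed edgeR's filter on low counts and were tested. CEBPA PM24365, CEBPG PM19131 and FOS PM21026 were among those at 0 everywhere, and RELA PM14407 and STAT5A PM03842 had counts in 1 library each. A gene was called at an adjusted p under 0.05 in edgeR's quasi-likelihood test, fitted over all 15615 tested genes. Fold changes below are on the log2 scale, first-named minus second-named group, ± SE.

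In KMT5A-knockout embryos at day 3, single models of ATF3, FOS, JUN, EGR3, IER5L, CEBPA, NFKBIE and IRF8 were among the members higher than in wildtype. Other models of the AP-1, EGR and IER families did not pass: 2 of 6 tested AP-1 models and 2 of 4 EGR and IER models were called higher. Of the NR4A models, 0 of 4 were called, but none was above 0 in all compared libraries. That count cannot tell whether the NR4A family changed. In all, 11 of 87 tested members were called, 9 higher and 2 lower, where 5.3% of all tested genes were called, 3.33% higher and 1.97% lower. The 9 made up 10.3% of the tested members. The median log2 fold change over the 64 members above 0 in all 4 libraries was 0.07, against -0.01 over 11658 such genes. The value was above 0 in 40 of these 64 members (62.5%), against 48.6% of those genes. With libraries scaled by total counts alone, which moved the median of all genes by -0.16, the split was 4 higher and 0 lower. Without wildtype replicate 1 or 2, 3 and 6 members were called, without KMT5A-knockout replicate 1 or 2, 7 and 16, and without both libraries rich in ribosomal RNA 12.

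ATF3 PM06901, a stress-induced factor that pairs with JUN proteins, lies on chromosome 6 at 9758727 to 9782260 in 5 exon blocks. It had 14.9 and 12.4 CPM in KMT5A-knockout pools, 6.41 and 6.68 CPM in KMT1-knockout pools, and 4.22 CPM in both wildtype pools at day 3. The 3 genotypes did not overlap: KMT5A-knockout pools were highest and wildtype pools lowest. The other ATF3 model, PM14358 on chromosome 29, did not show this order and was called in no knockout comparison. At day 3 it had 0.749 and 0 CPM in KMT5A-knockout pools, 0.863 and 1.33 CPM in KMT1-knockout pools, and 0.57 and 0 CPM in wildtype pools. For PM06901 the log2 fold change was 1.69 ± 0.11 in KMT5A knockouts (3.23-fold, edgeR adjusted p = 0.000176) and 0.63 ± 0.11 in KMT1 knockouts (1.55-fold, edgeR adjusted p = 0.0144), both against the same wildtype pools. The KMT5A value stayed called without any 1 library, between 1.55 and 1.81, whereas the KMT1 call was lost without wildtype replicate 1 (0.68, edgeR adjusted p = 0.0526) or replicate 2 (0.63, edgeR adjusted p = 0.0687).

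Its neighbour FOS PM06903, one of the AP-1 partners, starts 16.3 kb away on the same chromosome (9798583 to 9802946). At day 3 it had 11.5 and 9.55 CPM in KMT5A-knockout pools, 3.16 and 3.67 CPM in KMT1-knockout pools, and 5.70 and 5.32 CPM in wildtype pools. KMT5A-knockout pools were above wildtype and KMT1-knockout pools below it, with no overlap. Against wildtype the log2 fold change was 0.93 ± 0.20 in KMT5A knockouts (edgeR adjusted p = 0.0352) and -0.69 in KMT1 knockouts, which did not pass (edgeR adjusted p = 0.0891). The KMT5A call was lost without either wildtype pool (1.00 and 0.86, edgeR adjusted p = 0.124 and 0.177), without KMT5A-knockout replicate 1 (0.79, edgeR adjusted p = 0.142), and without both libraries rich in ribosomal RNA (0.79, edgeR adjusted p = 0.0937). The other expressed FOS model, PM14397 on chromosome 29, had 22.2 and 20.7 CPM in KMT5A-knockout pools, against 17.7 and 20.5 CPM in wildtype pools, and was not called.

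**Figure D1:**
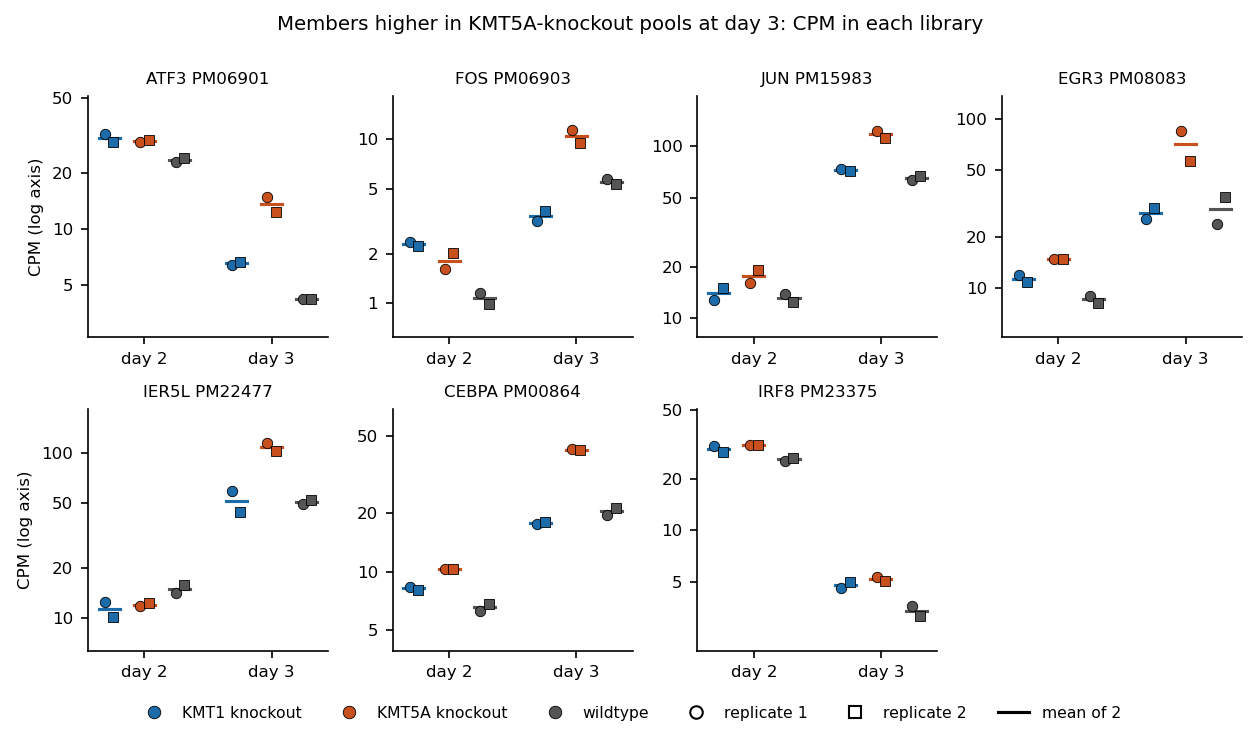
CPM (log axis) of 7 members called higher in KMT5A knockouts at day 3, in each of the 12 libraries; circles and squares are the 2 pools of a group and the bar is their mean. At day 3 the KMT5A-knockout pools lie above the wildtype pools in every panel, with ATF3 at 14.9 and 12.4 CPM against 4.22 CPM, while ATF3 and IRF8 were also higher in KMT1 knockouts.

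JUN PM15983, the AP-1 partner of FOS, is a single-exon model on chromosome 35 (2072239 to 2076790). It had 122 and 112 CPM in KMT5A-knockout pools, 74.0 and 72.2 CPM in KMT1-knockout pools, and 63.6 and 67.3 CPM in wildtype pools at day 3. Only the KMT5A-knockout difference passed (0.84 ± 0.11, 1.78-fold, edgeR adjusted p = 0.0067), and that call was lost without wildtype replicate 1 (0.81, edgeR adjusted p = 0.0527). A further model, JUN PM18820 on chromosome 44, had 35.1 and 35.9 CPM in KMT5A-knockout pools, 38.4 and 35.0 CPM in KMT1-knockout pools, and 24.8 and 26.2 CPM in wildtype pools. Both knockouts lay above wildtype without overlap, but neither difference passed (0.47 in KMT5A and 0.52 in KMT1 knockouts, edgeR adjusted p = 0.217 and 0.169). JUND was at 31.0 and 29.6 CPM in KMT5A-knockout pools, 23.5 CPM in both KMT1-knockout pools, and 30.1 and 31.2 CPM in wildtype pools, and was called in no knockout comparison.

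EGR3 PM08083 (chromosome 9, 13367996 to 13395782), the member whose protein matched best (83.7% identity), spread widely between replicates. It had 85.3 and 56.6 CPM in KMT5A-knockout pools, 25.6 and 30.0 CPM in KMT1-knockout pools, and 23.9 and 34.9 CPM in wildtype pools at day 3. The KMT5A-knockout pools were above all others, by 1.27 ± 0.23 on the log2 scale (edgeR adjusted p = 0.02). Leaving out wildtype replicate 1 gave 1.04 (edgeR adjusted p = 0.0827), and leaving out KMT5A-knockout replicate 1, the library richest in ribosomal RNA, gave 0.94 (edgeR adjusted p = 0.0531). EGR1, the best-known immediate-early zinc-finger factor, was at 10.2 and 8.30 CPM in KMT5A-knockout pools and 11.2 and 12.2 CPM in wildtype pools and was not called. IER5L PM22477, an intron-less gene on chromosome 59, had 114 and 102 CPM in KMT5A-knockout pools, 58.4 and 43.7 CPM in KMT1-knockout pools, and 49.2 and 52.0 CPM in wildtype pools. It was 2.13-fold higher in KMT5A knockouts than in wildtype (1.09 ± 0.15, edgeR adjusted p = 0.00778), a call that was lost without wildtype replicate 1 or 2 (1.07 and 1.10, edgeR adjusted p = 0.0604 and 0.0529).

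CEBPA PM00864, a C/EBP factor that drives differentiation in fat, liver and myeloid cells of mammals, was also higher in KMT5A knockouts. This single-exon model on an unlocalised scaffold of chromosome 63 had 42.6 and 42.2 CPM in KMT5A-knockout pools, 17.6 and 18.1 CPM in KMT1-knockout pools, and 19.5 and 21.3 CPM in wildtype pools at day 3. It was 2.08-fold higher in KMT5A knockouts than in wildtype (1.05 ± 0.085, edgeR adjusted p = 0.000458), and leaving out any 1 library kept the call (1.01 to 1.09). ATF4, the effector of the integrated stress response, was at 161 and 158 CPM in KMT5A-knockout pools, 126 and 128 CPM in KMT1-knockout pools, and 147 and 152 CPM in wildtype pools. The KMT1 difference passed (-0.24 ± 0.034, edgeR adjusted p = 0.00784), though not without wildtype replicate 2 (-0.21, edgeR adjusted p = 0.0522), and the KMT5A difference did not.

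Of the NF-kB system, the inhibitor NFKBIE alone passed at day 3, in KMT5A knockouts. This IkB protein gene had 366 and 309 CPM in KMT5A-knockout pools, 302 and 228 CPM in KMT1-knockout pools, and 227 and 233 CPM in wildtype pools at day 3. The KMT5A difference was 0.55 ± 0.13 (edgeR adjusted p = 0.0488) and rested on each of 3 libraries: without wildtype replicate 1 or 2 or KMT5A-knockout replicate 1 it was 0.55, 0.54 and 0.42 (edgeR adjusted p = 0.225, 0.218 and 0.242). The 2 models of NFKBIA, the IkB gene that NF-kB induces most directly, differed more in level but were not called. NFKBIA PM10662 (chromosome 17) had 597 and 550 CPM in KMT5A-knockout pools, 299 and 82.8 CPM in KMT1-knockout pools, and 105 and 251 CPM in wildtype pools. NFKBIA PM14376 (chromosome 29) had 373 and 305 CPM in KMT5A-knockout pools, 216 and 55.5 CPM in KMT1-knockout pools, and 131 and 144 CPM in wildtype pools.

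In both NFKBIA models the KMT5A-knockout pools were highest, while the 2 KMT1-knockout pools lay on either side of wildtype. Against wildtype the log2 fold changes were 1.69 ± 0.57 and 1.30 ± 0.59 in KMT5A knockouts (edgeR adjusted p = 0.151 and 0.276) and 0.10 ± 0.56 and -0.02 ± 0.58 in KMT1 knockouts (edgeR adjusted p = 1 for both). The low KMT1-knockout pool is replicate 2, one of the 2 libraries rich in ribosomal RNA. The other such library, KMT5A-knockout replicate 1, was the higher of its pair. For NFKBIA PM14376 in KMT1 knockouts, a model term marking these 2 libraries gave 0.19 and leaving both out gave 0.69. The cause of these shifts was not tested. The subunits differed less: REL PM10637 was at 121 and 123 CPM in KMT5A-knockout pools, 107 and 77.4 CPM in KMT1-knockout pools, and 96.9 and 95.1 CPM in wildtype pools. RELA PM21014 lay between 34.1 and 41.8 CPM in all 6 day 3 libraries, and neither subunit was called at day 3.

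**Figure D2:**
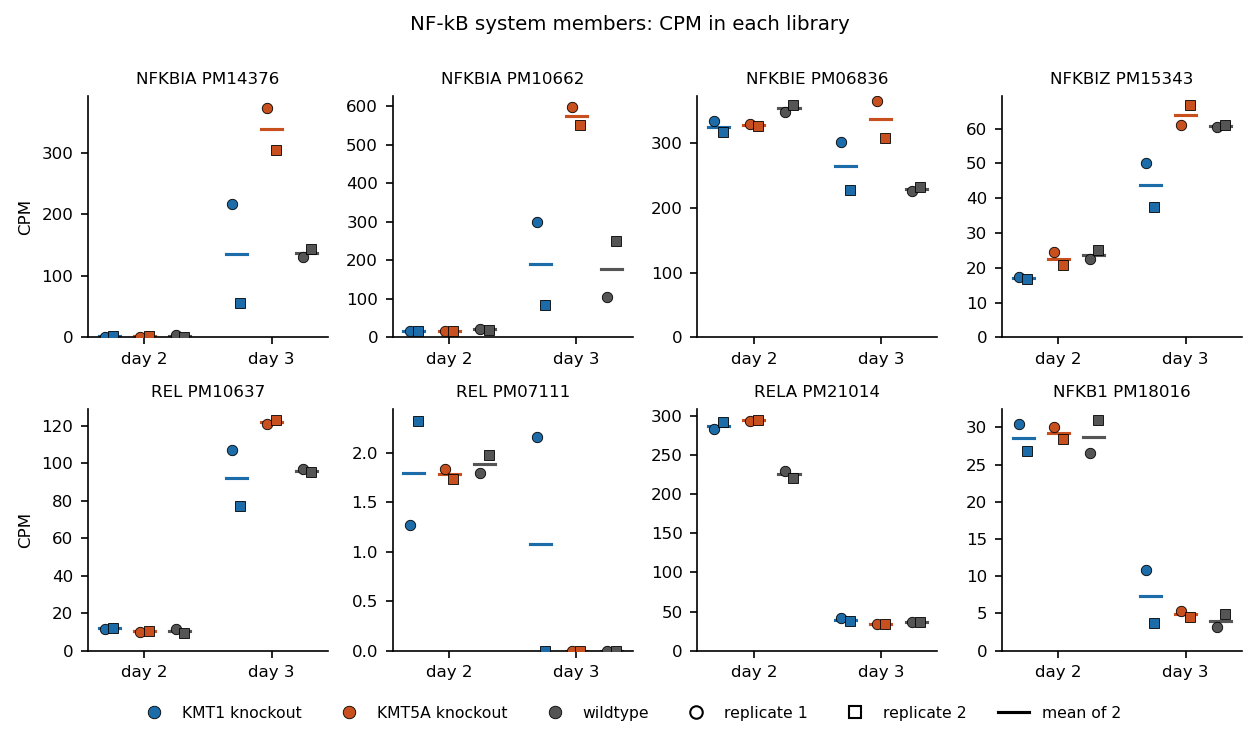
CPM (linear axes from 0) of 8 NF-kB system members in each library, inhibitors above and REL-family subunits below; circles and squares are the 2 pools of a group and the bar is their mean. Among the day 3 pools, the inhibitors NFKBIA and NFKBIE are highest in KMT5A knockouts, where NFKBIA PM10662 reached 597 and 550 CPM. The NFKBIA differences from wildtype were not called. RELA PM21014 is higher than wildtype in both knockouts at day 2.

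Of the interferon regulatory factors, IRF8 PM23375 was higher than wildtype in both knockouts at day 3. This gene, known from myeloid cells in mammals, had 5.38 and 5.08 CPM in KMT5A-knockout pools, 4.62 and 5.04 CPM in KMT1-knockout pools, and 3.65 and 3.21 CPM in wildtype pools. Its log2 fold changes were 0.61 ± 0.10 (KMT5A, edgeR adjusted p = 0.0141) and 0.49 ± 0.10 (KMT1, edgeR adjusted p = 0.029). The myeloid markers named above were at or near 0 in the same libraries. The IRF8 calls did not hold without wildtype replicate 2 (0.49 and 0.40, edgeR adjusted p = 0.0724 and 0.121) or without KMT5A-knockout replicate 1 (0.56, edgeR adjusted p = 0.0655) or either KMT1-knockout pool (0.55 and 0.47, edgeR adjusted p = 0.053 and 0.0628).

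The remaining called members at day 3 changed less. HIF1A PM14509, the hypoxia-regulated factor, was at 122 and 130 CPM in KMT5A-knockout pools, 123 and 130 CPM in KMT1-knockout pools, and 159 and 156 CPM in wildtype pools. The log2 fold change was -0.32 ± 0.046 in each knockout (edgeR adjusted p = 0.0083 in KMT5A and 0.00778 in KMT1), a call lost without wildtype replicate 1 (-0.29 and -0.26, edgeR adjusted p = 0.0589 and 0.0717). The other HIF1A model, PM15480, was listed at 0 in both wildtype pools at day 3, and such a 0 can be a failed estimate. Both KMT5A-knockout pools held 50 or more counts of PM15480, and the difference was not called. KLF15, a metabolic regulator in mammals, fell in KMT5A knockouts (9.73 and 9.93 CPM, against 17.6 and 17.2 CPM in wildtype pools, -0.82 ± 0.15, edgeR adjusted p = 0.0214). It was at 13.0 and 13.7 CPM in KMT1-knockout pools, which was not called. The KLF15 call was lost without either wildtype pool (-0.79 and -0.86, edgeR adjusted p = 0.106 and 0.0749), without KMT5A-knockout replicate 1 (-0.81, edgeR adjusted p = 0.0857), and without both libraries rich in ribosomal RNA (edgeR adjusted p = 0.0667). CREB3L4, a membrane-bound bZIP factor, rose in KMT1 knockouts (21.1 and 21.5 CPM, against 17.5 and 16.2 CPM in wildtype pools, 0.34 ± 0.080, edgeR adjusted p = 0.0496), and leaving out any 1 of the 4 libraries ended that call (0.28 to 0.44).

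In KMT1 knockouts at day 3, then, 6 of 87 tested members were called, 4 higher (among them ATF3, IRF8 and CREB3L4) and 2 lower (ATF4 and HIF1A). Of all tested genes 6.26% were called, 4.67% higher and 1.59% lower, so the members' share was near the background. With libraries scaled by total counts alone the split was 2 higher and 0 lower. Without wildtype replicate 1 or 2, 3 and 2 members were called, without KMT1-knockout replicate 1 or 2, 6 and 11, and without both libraries rich in ribosomal RNA 15. When each day 3 comparison was fitted on its own 4 libraries, edgeR called none of the members at either knockout, with 23 members in KMT5A and 15 in KMT1 at an unadjusted p under 0.05. The called members then had an adjusted p of 0.0584 to 0.258 in KMT5A knockouts and 0.131 to 0.312 in KMT1 knockouts. The calls at day 3 thus use the spread estimated over all 6 groups, while DESeq2, fitted on all libraries, called 25 and 17 members.

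**Figure D3:**
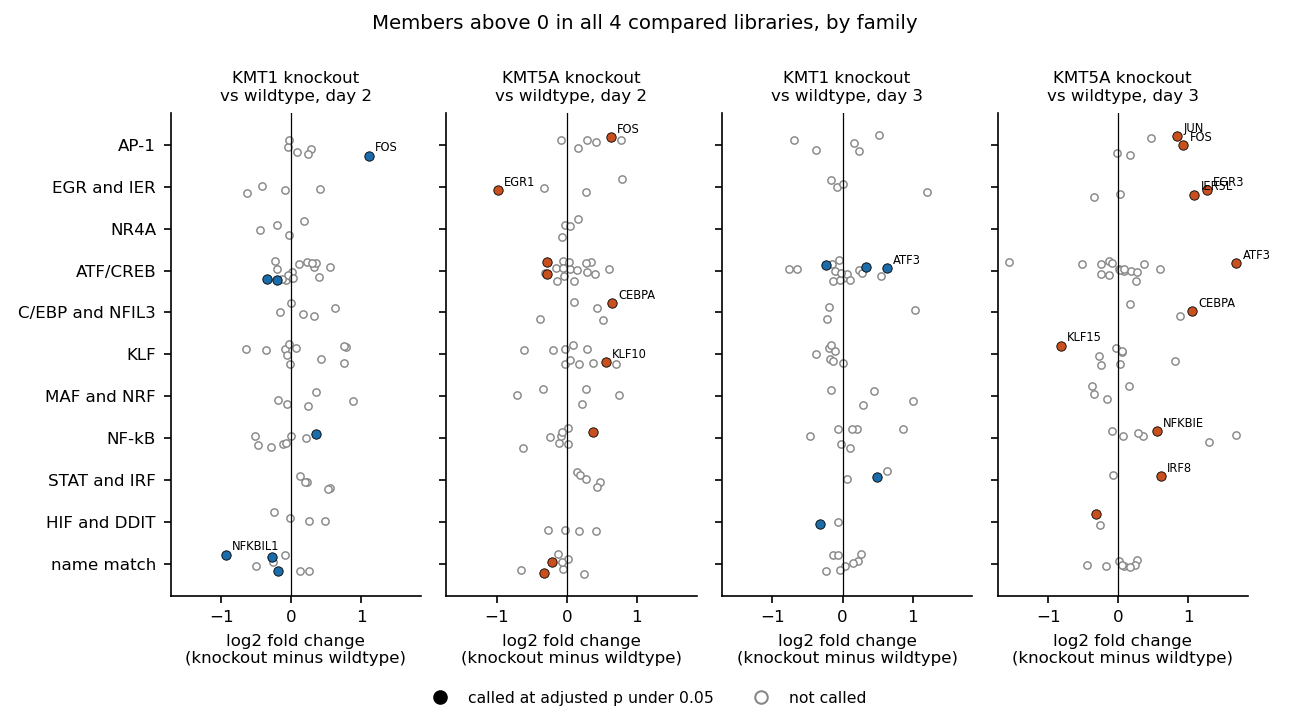
Log2 fold changes (knockout minus wildtype) of the reported members above 0 in the 4 compared libraries, by family, for each knockout and day; each point is a gene model and filled points were called. The filled points right of 0 in the last panel include ATF3 at 1.69 and EGR3 at 1.27, while at day 2 called members lie on both sides of 0.

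Compared directly at day 3, KMT5A knockouts exceeded KMT1 knockouts in 7 members and were lower in 0, where 1.47% of all tested genes were called and 0.371% were called higher. Since members with a difference in this direction were among those described above, these values restate their day 3 levels without the wildtype pools. FOS PM06903 was 3.08-fold higher in KMT5A than in KMT1 knockouts (1.62 ± 0.20, edgeR adjusted p = 0.00581), CEBPA 2.37-fold (1.25 ± 0.085, edgeR adjusted p = 0.000339) and ATF3 2.08-fold (1.06 ± 0.11, edgeR adjusted p = 0.00214). EGR3 PM08083 was 1.35 ± 0.23, IER5L 1.07 ± 0.15, JUN PM15983 0.67 ± 0.11 and ATF4 0.33 ± 0.034 higher on the log2 scale (edgeR adjusted p = 0.0314, 0.0142, 0.0315 and 0.00257). The FOS, CEBPA, ATF3 and ATF4 calls held without any 1 library. EGR3 and JUN were lost without either KMT1-knockout pool (1.24 and 1.42 for EGR3, 0.69 and 0.61 for JUN), and EGR3, JUN and IER5L without KMT5A-knockout replicate 1 (1.00, 0.59 and 0.96). Fitted on the 4 day 3 knockout libraries alone, edgeR called 0 members, with 11 at an unadjusted p under 0.05. DESeq2 on all libraries called 17, 13 higher and 4 lower. A model term marking the 2 libraries rich in ribosomal RNA gave 10 higher and 3 lower. The absence of lower members thus depended on the fit. Without both of those libraries, which are of different knockouts, the calls of EGR3 PM08083 (1.09) and JUN PM15983 (0.54) were lost. At day 2 edgeR called 0 members between the 2 knockouts, with 7 at an unadjusted p under 0.05, and DESeq2 called 1, where 0.147% of all genes were called, 0.0128% higher and 0.134% lower.

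At day 2 a FOS model and RELA were higher than in wildtype in each knockout, and ATF4 and a CREB1 model were lower. In KMT5A knockouts 9 of 87 tested members were called, 4 higher and 5 lower, where 9.07% of all tested genes were called, 2.64% higher and 6.43% lower. In KMT1 knockouts 8 were called, 3 higher and 5 lower, where 9.97% of all genes were called, 3.18% higher and 6.79% lower. Both shares were near their background, and both knockouts were set against the same wildtype pools. With libraries scaled by total counts alone the splits were 2 higher and 0 lower in KMT5A and 1 higher and 0 lower in KMT1 knockouts. Without wildtype replicate 1 or 2, 4 and 5 members were called in KMT5A and 3 in KMT1 knockouts, and without a knockout pool 7 and 5 in KMT5A and 2 in KMT1 knockouts. Without both libraries rich in ribosomal RNA, which are of day 3, 16 members were called in each.

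Both expressed FOS models had higher values than wildtype in each knockout at day 2, and each passed the test in a single knockout. FOS PM06903 had 1.62 and 2.01 CPM in KMT5A-knockout pools, 2.36 and 2.23 CPM in KMT1-knockout pools, and 1.15 and 0.98 CPM in wildtype pools. Both knockouts lay above wildtype, and the difference passed in KMT1 knockouts (1.11 ± 0.20, 2.15-fold, edgeR adjusted p = 0.0113) but not in KMT5A knockouts (0.77 ± 0.20, edgeR adjusted p = 0.0526). FOS PM14397 had 5.51 and 5.86 CPM in KMT5A-knockout pools, 4.37 and 4.54 CPM in KMT1-knockout pools, and 3.52 and 3.80 CPM in wildtype pools, and passed in KMT5A knockouts (0.63 ± 0.11, edgeR adjusted p = 0.0106). The KMT1 call of FOS PM06903 was lost without wildtype replicate 2 (1.02, edgeR adjusted p = 0.0793) or either knockout pool (1.09 and 1.16, edgeR adjusted p = 0.0639 and 0.0571). The call of FOS PM14397 was lost without wildtype replicate 1 (0.59, edgeR adjusted p = 0.0815) or KMT5A-knockout replicate 2 (0.60, edgeR adjusted p = 0.0676).

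EGR1 (chromosome 1, 10328184 to 10339053) went the other way at day 2. It had 1.76 and 1.28 CPM in KMT5A-knockout pools, 1.88 and 2.03 CPM in KMT1-knockout pools, and 3.20 and 2.83 CPM in wildtype pools. Both knockouts lay below wildtype, and the difference passed in KMT5A knockouts (-0.99 ± 0.19, edgeR adjusted p = 0.0177) but not in KMT1 knockouts (-0.63, edgeR adjusted p = 0.0888). The EGR1 call was lost without wildtype replicate 1 or 2 or KMT5A-knockout replicate 2 (-0.89, -1.06 and -0.76, edgeR adjusted p = 0.114, 0.0616 and 0.105). EGR3 PM08083 was at 14.9 CPM in both KMT5A-knockout pools, 12 and 10.9 CPM in KMT1-knockout pools, and 9.01 and 8.23 CPM in wildtype pools, a KMT5A difference of 0.79 that did not pass (edgeR adjusted p = 0.0787). CEBPA already exceeded wildtype in KMT5A knockouts (10.3 CPM in both pools, against 6.28 and 6.81 CPM in wildtype pools, 0.65 ± 0.084, edgeR adjusted p = 0.00307). KLF10, a factor induced by TGF-beta in mammals, was at 26.6 and 31.0 CPM in KMT5A-knockout pools, against 20.2 and 18.8 CPM in wildtype pools (0.56 ± 0.12, edgeR adjusted p = 0.0291). That KLF10 call was lost without wildtype replicate 1 or 2 or KMT5A-knockout replicate 2 (0.62, 0.52 and 0.46, edgeR adjusted p = 0.11, 0.161 and 0.172).

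RELA PM21014, an NF-kB subunit with transactivating activity, was higher in both knockouts at day 2. It had 293 and 295 CPM in KMT5A-knockout pools, 283 and 292 CPM in KMT1-knockout pools, and 230 and 221 CPM in wildtype pools. The log2 fold changes were 0.38 ± 0.050 and 0.35 ± 0.050 (edgeR adjusted p = 0.0032 in KMT5A and 0.00437 in KMT1), and both calls held without any 1 library. The inhibitors were not called at day 2: NFKBIE was at 330 and 327 CPM in KMT5A-knockout pools and 349 and 360 CPM in wildtype pools, and neither NFKBIA model passed. NFE2L2 (NRF2), the factor of the oxidative stress response, had 12.6 and 10.9 CPM in KMT5A-knockout pools, 13.2 and 12.7 CPM in KMT1-knockout pools, and 7.09 and 6.96 CPM in wildtype pools. Both knockouts lay above wildtype without overlap, yet neither difference passed (0.74 in KMT5A and 0.88 in KMT1 knockouts, edgeR adjusted p = 0.28 and 0.175).

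Of the genes lower in both knockouts at day 2, ATF4 had 73.2 and 71.9 CPM in KMT5A-knockout pools, 77.1 and 75.5 CPM in KMT1-knockout pools, and 88.4 and 88.5 CPM in wildtype pools. The log2 fold changes were -0.29 ± 0.034 and -0.21 ± 0.034 (edgeR adjusted p = 0.00229 in KMT5A and 0.00761 in KMT1). CREB1 PM15882, of the family that answers cAMP signals, had 668 and 675 CPM in KMT5A-knockout pools, 641 and 654 CPM in KMT1-knockout pools, and 822 and 823 CPM in wildtype pools. Its log2 fold changes were -0.29 ± 0.056 and -0.34 ± 0.056 (edgeR adjusted p = 0.0166 and 0.00775). This CREB1 model overlaps METTL21A and NKIRAS2 on the opposite strand by 6333 and 4401 bases, and the strand setting is not given, so reads of these genes cannot be told apart. Lower in both knockouts too were CEBPZ, a nucleolar protein and no C/EBP factor (-0.32 and -0.28), and ATF7IP PM18349, in mammals a partner of the H3K9 methyltransferase SETDB1 (-0.21 and -0.19). NFKBIL1 was lower in KMT1 knockouts (1.88 and 2.08 CPM, against 4.37 and 3.17 CPM in wildtype pools, -0.93 ± 0.20, edgeR adjusted p = 0.0234). Leaving out any 1 library ended the calls of CREB1 and ATF7IP in both knockouts and of ATF4 in KMT1 knockouts (CREB1 -0.28 to -0.34, ATF7IP -0.13 to -0.23, ATF4 -0.18 to -0.20). The NFKBIL1 call was lost without wildtype replicate 1 or either KMT1-knockout pool (-0.66, -0.84 and -0.99). CREB1 PM05907 on chromosome 4 was listed at 0 in both wildtype pools, with 6.99 and 47.7 CPM in KMT5A-knockout pools and 47.2 and 14.2 CPM in KMT1-knockout pools, and was called in KMT1 knockouts (edgeR adjusted p = 0.0493).

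The knockout effect itself differed between the days for several of these genes. For KMT5A 10 of 87 tested members (11.5%) were called (6 positive, 4 negative), where 9.65% of all tested genes were called, 6.47% positive and 3.18% negative. For KMT1 5 (5.75%) were called (2 positive, 3 negative), where 10.2% of all tested genes were, 7.3% positive and 2.91% negative. The members' share was thus near the background for KMT5A and under it for KMT1. IER5L had the largest positive difference for KMT5A: 11.8 and 12.4 CPM in KMT5A-knockout pools against 14.2 and 15.9 CPM in wildtype pools at day 2, and above wildtype at day 3 as given above. The difference was 1.41 ± 0.22 (edgeR adjusted p = 0.00808). ATF3 followed with 1.35 ± 0.15 (edgeR adjusted p = 0.00226), from 29.0 and 29.9 CPM in KMT5A-knockout pools against 22.8 and 23.9 CPM in wildtype pools at day 2. ATF3, IER5L, ATF4, CEBPZ and RELA kept this call without any 1 library. FOS PM06903 had the largest difference for KMT1, -1.80 ± 0.28 (edgeR adjusted p = 0.00742), being above wildtype at day 2 and below it at day 3, and it kept the call without any 1 library. With libraries scaled by total counts alone the split was 1 positive and 0 negative for KMT5A and 0 and 1 for KMT1. Leaving out 1 library gave 5 to 14 called members for KMT5A, the lowest without wildtype day 2 replicate 2 or day 3 replicate 1 and the highest without KMT5A-knockout day 3 replicate 2. For KMT1 it gave 2 to 10, the lowest without KMT1-knockout day 2 replicate 2 and the highest without KMT1-knockout day 3 replicate 2.

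**Figure D4:**
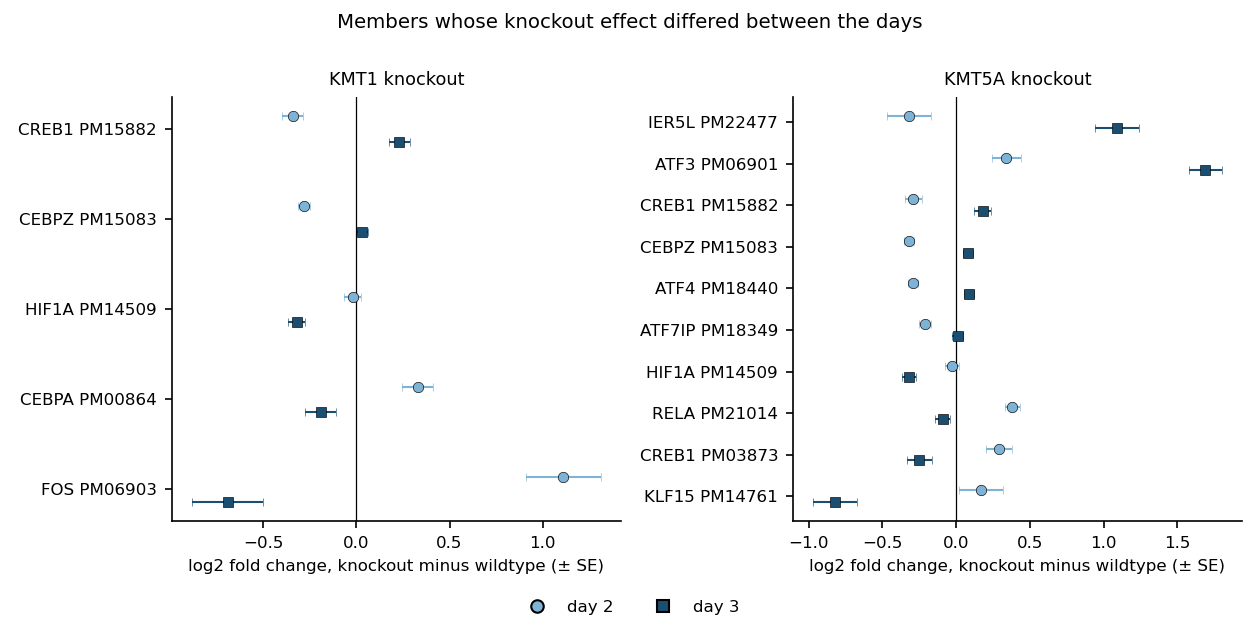
Log2 fold change (knockout minus wildtype, ± SE) at day 3 (squares) and day 2 (circles) of the members whose knockout effect differed between days, KMT1 knockout left and KMT5A knockout right. IER5L and ATF3 in KMT5A knockouts stand far right at day 3 (1.09 and 1.69), and FOS PM06903 in KMT1 knockouts lies at -0.69 at day 3, against 1.11 at day 2.

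These knockout differences sit on large changes with age. In wildtype embryos 72 of 87 tested members were called between day 3 and day 2, 36 higher and 36 lower at day 3, where 66.1% of all tested genes were called, 29.0% higher and 37.0% lower. A group was listed at 0 for 1 of the higher and 14 of the lower calls, and such a 0 can be a failed estimate. Among called members above 0 in all 4 libraries, 35 were higher and 21 lower. Over the 66 members above 0 in all 4 libraries the median log2 fold change was 0.43, against -0.04 over 11896 such genes; scaling by total counts alone moved the median of all genes by -0.31 and gave 29 higher and 39 lower members. Of 6 tested AP-1 models, 5 were called higher at day 3. JUN PM01970, which held at most 53 counts in a library, was not called. JUN PM18820 was at 24.8 and 26.2 CPM at day 3, against 1.79 and 1.19 CPM at day 2 (4.10 ± 0.22), and JUND at 30.1 and 31.2 CPM, against 3.13 and 3.56 CPM (3.20 ± 0.12). JUN PM15983, FOS PM06903 and FOS PM14397 rose by 2.32, 2.37 and 2.38. EGR1, EGR3 PM08083 and IER5L rose by 1.95, 1.77 and 1.75, and the weakly expressed EGR3 PM02090 was lower at day 3 (0.60 and 0.45 CPM, against 1.27 and 1.38 CPM at day 2), a call that ended on leaving out any 1 library. The adjusted p of the changes of the 5 called AP-1 models, EGR1, EGR3 PM08083 and IER5L was 0.0002 or less in edgeR.

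ATF3 ran against this: it was at 4.22 CPM in both day 3 pools, against 22.8 and 23.9 CPM at day 2 (-2.47 ± 0.11, edgeR adjusted p = 3.78e-07). The higher ATF3 level of day 3 knockouts thus lay between the wildtype levels of the 2 days. IRF8 PM23375 fell in wildtype by 2.92 on the log2 scale and likewise lay between the 2 days in knockouts. CREB3L4 also fell with age (-1.78) and lay between the 2 days in KMT1 knockouts. NFKBIE fell with age (-0.62) and was higher than wildtype in KMT5A knockouts at day 3. By contrast, FOS PM06903, JUN PM15983, EGR3 PM08083, IER5L and CEBPA rose with age and were higher still in KMT5A knockouts. HIF1A PM14509 and KLF15 also rose with age in wildtype (1.44 and 2.10), and both were lower in KMT5A knockouts at day 3. ATF4 rose with age too (0.76), and ATF4 and HIF1A PM14509 were lower in KMT1 knockouts at day 3.

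**Figure D5:**
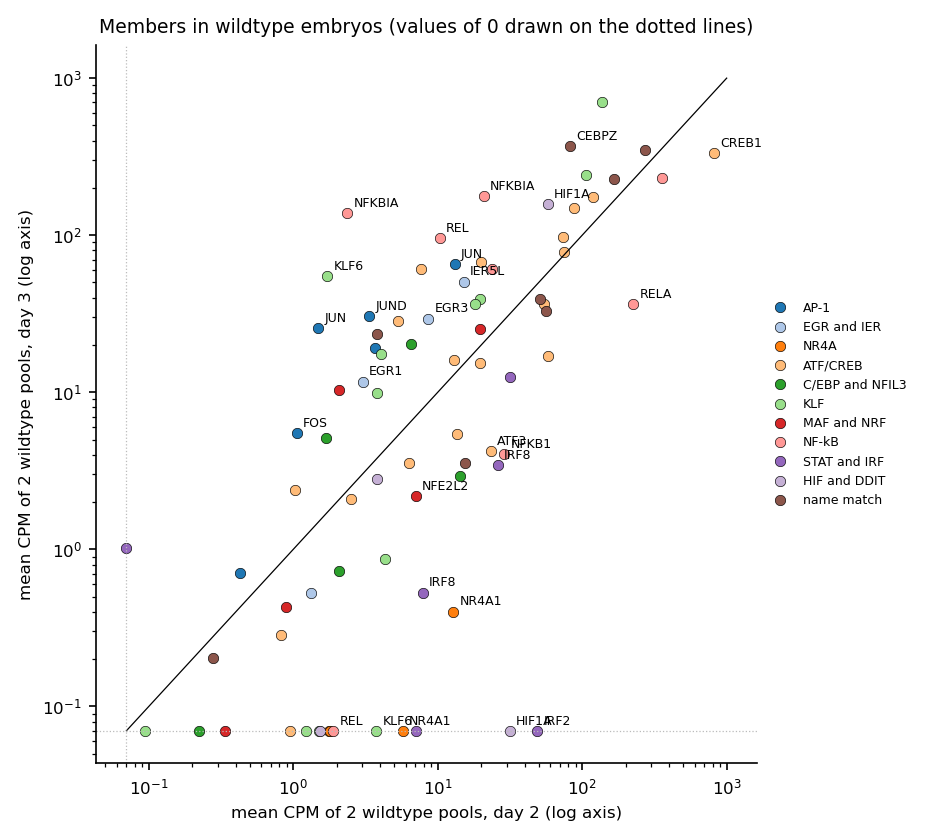
Mean CPM of the 2 wildtype pools at day 2 (x axis) and day 3 (y axis) for each member reported, on log axes, coloured by family; values of 0 are drawn on the dotted lines and the diagonal marks equal levels. NFKBIA PM14376 and KLF6 PM03868 lie farthest above the diagonal, and RELA, NFKB1, ATF3 and IRF8 below it.

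Within the NF-kB system some inhibitors and some subunits rose with age and others of each kind fell. NFKBIA PM14376 was at 131 and 144 CPM at day 3, against 3.31 and 1.42 CPM at day 2 (58.4-fold, 5.87 ± 0.73, edgeR adjusted p = 0.000149), and NFKBIA PM10662 at 105 and 251 CPM, against 21.4 and 20.2 CPM (3.10 ± 0.61, edgeR adjusted p = 0.0021). NFKBIZ rose by 1.36, whereas NFKBIE fell by 0.62. Of the subunits, REL PM10637 was higher at day 3 (96.9 and 95.1 CPM, against 11.3 and 9.33 CPM at day 2, 3.22 ± 0.16). RELA PM21014 was lower (36.2 and 36.4 CPM, against 230 and 221 CPM, -2.64 ± 0.053), and so was NFKB1 (3.16 and 4.91 CPM, against 26.5 and 31.0 CPM, -2.83 ± 0.46). The edgeR adjusted p of these 3 subunits was 0.000717 or less. NFKB1 overlaps DNAJC9 on the opposite strand by 1454 bases. Per kilobase of exon, NFKBIE ranked first of the members in day 2 wildtype pools (105 CPM per kb), and the 2 NFKBIA models reached 191 and 190 CPM per kb in KMT5A-knockout pools at day 3, against 59.4 and 77.2 CPM per kb in wildtype pools.

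Some members that share a symbol took opposite courses. Of the 26 shared symbols, 9 had 1 model higher at day 3 and another lower or listed at 0, among them ATF6, CEBPA, CREB1, EGR3, HIF1A, KLF6, MAFA and REL. For CEBPA, HIF1A, KLF6, MAFA and REL the contrast rested on models listed at 0, and such a 0 can be a failed estimate. KLF6 PM03868 rose to 52.9 and 56.3 CPM at day 3, against 2.03 and 1.42 CPM at day 2 (31.7-fold, 4.99 ± 0.25, edgeR adjusted p = 6.35e-07), while KLF6 PM05904 and PM15878 were listed at 0 in all 6 day 3 libraries. The 3 KLF6 models and KLF7 each lie on the same chromosome as a CREB1 model, on chromosomes 2, 4, 34 and 10, 227.7 to 700.3 kb apart. HIF1A PM15480 was listed at 0 in both wildtype pools at day 3, against 33.5 and 29.3 CPM at day 2, when HIF1A PM14509 rose. ATF6 PM06233, a sensor of endoplasmic reticulum stress, was at 69.4 and 65.8 CPM at day 3 against 20.5 and 19.1 CPM at day 2, and ATF6 PM24151 at 6.95 and 3.91 CPM against 14.1 and 13.2 CPM, a fall that was lost without wildtype day 3 replicate 2 (-0.93, edgeR adjusted p = 0.0528). XBP1 PM06387, a target of the same response, rose by 0.41, and XBP1 PM03769 was not called.

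In all, 14 of the 82 members above 0 in both day 2 wildtype pools were listed at 0 in both day 3 pools (17.1%), against 1606 of 14243 genes (11.3%). The NR4A receptors, immediate-early orphan nuclear receptors, were among them: NR4A1 PM04219, NR4A1 PM15770 and NR4A2 were at 1.99 and 1.55, 5.80 and 5.65, and 1.53 and 2.10 CPM in day 2 wildtype pools and at 0 in day 3 wildtype pools. NR4A1 PM08515 was at 0.80 and 0 CPM at day 3, against 12.7 and 12.8 CPM at day 2. No NR4A model was called in a knockout comparison. IRF2 had the highest day 2 level of those listed at 0 at day 3 (49.7 and 48.1 CPM at day 2), and IRF4 PM24358 had 6.06 and 8.05 CPM. Also in this group were KLF2, DDIT4L PM07751, MAFA PM12979, CEBPA PM13212 and REL PM07111. The reverse was seen for IRF4 PM23442, at 1.00 and 1.04 CPM in day 3 wildtype pools and listed at 0 in day 2 wildtype pools. It was also listed at 0 in all knockout pools at day 3, held 50 or more counts in both KMT1-knockout pools at day 2, and was called in no knockout comparison. ATF2 PM21668 was listed at 0 in both KMT5A-knockout pools at day 2. It had 12.3 and 1.98 CPM in KMT1-knockout pools and 15.3 and 0 CPM in wildtype pools, and was not called.

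Genes around these factors in the same pathways were read from lists of symbols, leaving out the members. Alternative fits are given here for members only, so how far the calls of list genes depend on single libraries is not shown. Of 33 tested MAP kinase and SRF regulators, 4 were higher and 1 lower in KMT5A knockouts at day 3, where 3.33% of all tested genes were higher and 1.97% lower. The called MAP kinase phosphatases, which shut off the signals that induce immediate-early genes, did not all go 1 way. DUSP1 and DUSP10 were higher: DUSP1 at 33.7 and 33.1 CPM against 21.9 and 21.3 CPM in wildtype pools (0.63 ± 0.13, edgeR adjusted p = 0.0299), DUSP10 at 67.8 and 54.1 CPM against 37.1 and 39.1 CPM (0.68 ± 0.13, edgeR adjusted p = 0.0296). DUSP8 PM02764 was the lower gene, at 2.02 and 1.6 CPM in KMT5A-knockout pools, against 4.28 and 3.93 CPM in wildtype pools (-1.18 ± 0.21, edgeR adjusted p = 0.0208). DUSP16, at 74.7 and 160 CPM against 204 and 187 CPM in wildtype pools, was not called. In KMT1 knockouts at day 3, 3 regulators were higher and 0 lower (all genes 4.67% and 1.59%). At day 2, 3 were higher and 0 lower in KMT5A knockouts (all genes 2.64% and 6.43%) and 3 higher and 3 lower in KMT1 knockouts (all genes 3.18% and 6.79%), DUSP1 among the lower ones (-0.68, edgeR adjusted p = 0.0154). Of 26 tested immediate-early targets and RNA decay factors, 4 were higher and 3 lower in KMT5A and 2 higher and 4 lower in KMT1 knockouts at day 3, where 5.3% and 6.26% of all tested genes were called in either direction. A group was listed at 0 for 1 of these calls in each knockout. The kinase gene PLK2 PM02181 was higher in both, at 244 and 245 CPM in KMT5A-knockout pools and 191 and 192 CPM in KMT1-knockout pools, against 119 and 116 CPM in wildtype pools (1.06 ± 0.056 and 0.71 ± 0.056, edgeR adjusted p = 8.24e-05 and 0.000612).

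At day 2, 4 models of that list were higher and 1 lower in KMT5A knockouts and 6 higher and 1 lower in KMT1 knockouts, where 9.07% and 9.97% of all tested genes were called. Of all tested genes 2.64% were higher and 6.43% lower in KMT5A, and 3.18% and 6.79% in KMT1 knockouts. A group was listed at 0 for 1 of the list's calls in KMT5A and 2 in KMT1 knockouts. Among the higher ones was PTGS2, the inducible cyclooxygenase, at 182 and 172 CPM in KMT5A-knockout pools and 186 and 142 CPM in KMT1-knockout pools, against 11.8 and 8.79 CPM in wildtype pools (4.10 ± 0.23 and 3.99 ± 0.23, edgeR adjusted p = 0.000178 and 0.000219). CHAC1, a glutathione-degrading target of ATF4 in mammals, was at 45.8 and 44.3 CPM in KMT5A-knockout pools and 51.3 and 49.9 CPM in KMT1-knockout pools, against 18.2 and 17.7 CPM in wildtype pools at day 2 (1.33 ± 0.25 and 1.49 ± 0.25, edgeR adjusted p = 0.0147 and 0.00836), while ATF4 itself was lower in both. In the list of the unfolded protein and integrated stress responses, CHAC1 was the 1 gene higher at day 2 in each knockout, with 4 lower in KMT5A and 3 lower in KMT1 knockouts. At day 3, 6 of these 32 tested models were higher and 1 lower in each knockout, where 3.33% of all tested genes were higher and 1.97% lower in KMT5A and 4.67% and 1.59% in KMT1 knockouts. The list's median log2 fold change lay between -0.05 and 0.02 in the 4 knockout comparisons, against -0.04 to 0.00 over all genes above 0.

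For the remaining lists, the share of all tested genes called in either direction was 9.07% in KMT5A and 9.97% in KMT1 knockouts at day 2, and 5.3% and 6.26% at day 3. Of 25 tested genes of the NRF2 response, 1 was higher and 2 were lower in each knockout at day 2. The higher one was GCLC PM09177, a glutathione synthesis enzyme (0.37 in KMT5A and 0.34 in KMT1 knockouts, edgeR adjusted p = 0.000531 and 0.000657). At day 3, 2 were higher and 2 lower in KMT5A and 4 higher and 0 lower in KMT1 knockouts. Of 22 tested NF-kB pathway genes, 2 were higher and 0 lower in KMT5A and 1 higher and 0 lower in KMT1 knockouts at day 2, and at day 3 1 was higher and 1 lower in KMT5A and 1 higher and 0 lower in KMT1 knockouts. For KMT5A at day 3, 1 of these calls had a group listed at 0. The kinase adaptor TAB2 PM20439 was higher in both knockouts at day 2 (0.53 and 0.69, edgeR adjusted p = 0.00962 and 0.00265), and the kinase MAP3K7 PM20377, which works with TAB2, at day 3 (0.35 and 0.38, edgeR adjusted p = 0.0182 and 0.0123). Of 23 tested JAK-STAT and interferon genes, 4 were lower and 1 higher in each knockout at day 2, and 1 was lower in each at day 3. The lower ones at day 2 included both models of SOCS5, a suppressor of cytokine signals (PM06807 at -0.29 in KMT5A and -0.50 in KMT1 knockouts, PM14950 at -0.41 and -0.40). Of 8 tested CREB coactivators and kinases, 1 was lower in KMT5A and 2 in KMT1 knockouts at day 2, and at day 3 1 was higher in KMT5A and 2 in KMT1 knockouts. The coactivator CREBBP PM18525 was lower in both knockouts at day 2 (-0.30 and -0.41, edgeR adjusted p = 0.00191 and 0.000512). Of 9 tested hypoxia genes, SLC2A1, a glucose transporter gene, was the 1 called in a knockout comparison, higher in KMT1 knockouts at day 2 (0.60, edgeR adjusted p = 0.024).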

How the data were processed

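RNA was sequenced from 12 pools of about 100 whole embryos, and groups were taken from the sample titles. The values are estimated counts per gene model as deposited by the authors; they were already whole numbers, so rounding changed none. HISAT2 2.2.1, StringTie 2.2.3 and DESeq2 1.42.1 are named in the submitters' processing notes, and their roles, the genome build and the strand setting are not given in the sources used here. Positions and other annotation fields, including the protein matches, are those deposited by the authors, per the file headers, in an annotation that names no assembly.

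Counts were tested in R 4.3.3 with edgeR 4.0.16 (quasi-likelihood F test, TMM normalization, edgeR's filter on low counts, 15615 of 22407 gene models, 1 term for each of 6 groups, 6 residual and 1.69 prior degrees of freedom). P-values were adjusted by Benjamini-Hochberg over all genes tested, and 0.05 was the threshold in 9 comparisons. Standard errors were derived from the F statistic. The test was checked on simulated data. CPM are the deposited counts scaled to a common total with TMM-adjusted library sizes. limma 3.58.1 and DESeq2 1.42.0 served as alternatives, and figures were made with matplotlib 3.10.9 in Python 3.11.15. Library depth was 61886305 to 89061394 counts. Error was estimated for each gene from the spread between the 2 pools of a group, shared over all 6 groups. The median absolute log2 difference between the 2 pools was 0.150 in KMT1 and 0.167 in KMT5A knockouts at day 3. In the other groups it was 0.075 to 0.093. The shared error can thus be too small for the day 3 knockouts.

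The members and the pathway lists were chosen with earlier results of these data known. Named in the text are the members called in a knockout comparison or in a difference between days, the 8 rising and 8 falling called members with the largest change in wildtype with at least 50 counts, the classical immediate-early and stress genes whether called or not, members listed at 0 in 1 group, and called genes of 8 pathway lists. Other members are named for a shared symbol or position. Some members are included in the counts but are not reported here by name or drawn. Alternatives were another normalization, library totals alone, other filters, DESeq2, limma voom, a fit of each comparison on its own libraries, a block for the replicate number, a model term marking the 2 libraries with much ribosomal RNA, a minimum fold change and leaving out each library. Leaving out both of those libraries was chosen after seeing the data. Where an arm was left with 1 library, it was taken to vary like the other groups. The labels do not say whether replicate numbers pair the pools. The correlation of same-numbered deviations ran from -0.19 to 0.07 over 15 pairs of groups. These values show no strong shared shift in expression and cannot tell how the pools were collected.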

Additional observations from a re-analysis of the deposited data

Results flagged for a closer look

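The results below drew attention because edgeR's test of the change in a knockout's effect with age passed; each value is the log2 fold change at day 3 minus that at day 2. For KMT5A, IER5L (1.41), ATF3 (1.35), CREB1 PM15882 (0.47), CEBPZ (0.40), ATF4 (0.38) and ATF7IP PM18349 (0.22) were positive, and KLF15 (-0.99), CREB1 PM03873 (-0.54), RELA (-0.47) and HIF1A PM14509 (-0.29) negative. For KMT1, CREB1 PM15882 (0.58) and CEBPZ (0.31) were positive, and FOS PM06903 (-1.80), CEBPA (-0.52) and HIF1A PM14509 (-0.30) negative. CREB1 PM15882, CEBPZ and HIF1A moved the same way in both knockouts, which were set against the same wildtype pools. Over all genes above 0 in every compared library, the median difference was 0.09 for KMT5A and 0.10 for KMT1, with 57.9% and 59.7% of genes above 0. Some calls were lost in at least 1 fit that left out a library. For KMT5A these were CREB1 PM15882, ATF7IP PM18349, KLF15, CREB1 PM03873 and HIF1A PM14509. For KMT1 they were CEBPZ, CEBPA and HIF1A PM14509. ATF4, CEBPZ, CREB1 PM15882 and ATF7IP were below wildtype in both knockouts at day 2.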

How the results depend on the processing

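Counts of called members are given in the order KMT1 and KMT5A knockout against wildtype at day 2, the same at day 3, and the KMT1 and KMT5A effects between days, against 8, 9, 6, 11, 5 and 10 in the reported fit. Scaling by library totals alone gave 1, 2, 2, 4, 1 and 1, DESeq2 gave 18, 21, 17, 25, 14 and 21, and a minimum log2 fold change of 1 gave 2, 0, 1, 5, 1 and 2, with 23 members at an unadjusted p under 0.05 where it gave 0. Fits of each knockout comparison on its own 4 libraries gave 16 and 14 at day 2 and 0 and 0 at day 3. A model term marking the 2 libraries with much ribosomal RNA gave 15, 14 and 10 for the first 3 and 9 for the KMT1 effect between days. Leaving out both such libraries gave 16, 16, 15 and 12 in the same places, and limma voom 14 for KMT1 at day 2. For KMT5A against KMT1 knockouts at day 3, against 7 members, library totals alone gave 4, DESeq2 17, the compared groups alone 0 and the ribosomal term 13, and at day 2 DESeq2 gave 1 against 0. Leaving out 1 library gave 2 to 3, 4 to 7, 2 to 11, 3 to 16, 2 to 10 and 5 to 14 members, 60 to 65 of 72 for day 3 against day 2 in wildtype, and 5 to 12 and 0 to 0 between the knockouts at day 3 and day 2. The cause was not tested. With a replicate block, though the labels do not say that the numbers pair the pools, 7, 8, 5, 10, 5 and 8 members were called, 68 for the wildtype days and 5 between the knockouts at day 3. Single values changed sign for ATF7IP PM18349 in the KMT5A effect between days (-0.02 with library totals alone) and for uncalled NFKBIA in KMT1 knockouts at day 3: PM10662 (-1.10 to 0.87 without 1 library) and PM14376 (-1.31 to 0.69 without 1 library, 0.19 with the ribosomal term, 0.69 without both libraries). A member counted once for each comparison that called it, which gave 111 changes. Of their 1724 alternative values, 1425 kept direction and call, 298 kept direction only and 1 reversed. These totals lean on the wildtype days, which gave 56 of the 111 changes. Fitted on their own libraries, all 56 kept the call. The knockout calls at day 3 did not: 0 of 11 in KMT5A and 0 of 6 in KMT1 knockouts kept it.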
